A study of Mus musculus with 14 samples.

Results

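The nuclear genes of respiratory complex I were followed in granulosa cells (GCs) of antral follicles from genetically obese mice. All protein-coding genes of the count table whose symbol begins with Nduf were taken, apart from Ndufs5 and pseudogenes, which gave 47 of the 55414 genes in the table. Of these, 39 are named as subunits and 8 are Ndufaf genes, which encode assembly factors. The choice rested on gene names and not on measured values.

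RNA-seq had been performed on 14 libraries, each made from a pool of about 50 GCs. There were 4 libraries from female db/db mice (B6.BKS(D)-Leprdb/J), which lack the long form of the leptin receptor, and 4 from their lean littermates (CT db). In the ob model, 3 libraries were of female ob/ob mice (B6.Cg-Lepob/J), which lack leptin, and 3 of lean littermates (CT ob). All mice were fed chow, and mutants were studied at 12 weeks of age. Both mutations are carried by every cell of the mouse, so effects within GCs and effects of obesity cannot be told apart. The labels give the controls as wild type while the table's column names mark them as heterozygous, and this was not settled. Nothing in the labels says that libraries of a group came from separate animals, so p-values measure the spread between these libraries. Strain and litter differ together with the model, and in comparisons between models they cannot be told apart. Libraries of a group are numbered here only to name them.

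Complex I is the entry point of electrons from NADH into the respiratory chain. It is built as an L, with a matrix arm that oxidises NADH and passes electrons to ubiquinone and a membrane arm that pumps protons. Its catalytic core is encoded partly by the mitochondrial genome (mt-Nd genes) and partly by nuclear genes, around which many accessory subunits are arranged. Assembly factors help to build the complex and are absent from the finished enzyme. GCs of growing follicles respire and supply the oocyte with metabolites.

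By role, the nuclear genes comprised 3 core subunits of the dehydrogenase (N) module, which binds NADH, and 4 core subunits of the quinone-binding (Q) module. There were 11 Ndufb genes of the distal membrane arm and 18 other accessory subunits. Ndufa4 and Ndufa4l2 carry the family's name but are nowadays assigned to complex IV, and Ndufb11b is a gene related in name to Ndufb11. In the filter on low counts, 45 of the 47 passed in the fit of each model and 46 in the fit of all libraries. Ndufa4l2 and Ndufb11b failed in the fits of single models, and Ndufb11b failed in all fits.

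Levels are given as CPM, a gene's counts relative to its library's total, scaled by TMM, a normalization that aligns the bulk of genes between libraries. Library totals ranged from 2204686 to 8367593 counts, and 3 counts, taken as the detection floor, corresponded to 0.359 to 1.36 CPM. Precision was limited accordingly for the weakest members, and floors cover counting error only because the protocol had no molecular identifiers. Totals did not overlap between mutants and controls. They were 2204686 to 3059777 counts in db/db, below the 3624237 to 4840714 counts in CT db. In ob/ob they were 5306632 to 8367593 counts, above the 3664219 to 4847166 counts in CT ob. The part of depth in the differences between groups was not tested. Reads were counted without a stated strand setting. Exons of another gene overlap 31 of the 47 members, 29 of them on the opposite strand, and reads from such partners cannot be told apart without strand. For 15 members at least 1 window of 75 bases of the main transcript had an exact second copy in the genome. The share of such windows was at least 10% for 5 members, namely Ndufb4 (39.7%), Ndufab1 (26.3%), Ndufs3 (24.5%), Ndufa12 (19.5%) and Ndufb11b (11.5%), and their counts are uncertain.

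1 library stood apart in these genes after TMM scaling. In CT ob library 3 the 39 subunits summed to 6214 CPM, against 3789 and 4051 CPM in the other CT ob libraries and 4029 to 5249 CPM in the libraries of the other groups. Without TMM scaling (factor 0.872 in this library) its sum was 5421 CPM, against 3944 and 4238 CPM in the other CT ob libraries. On that scale db/db library 2 (5461 CPM) and ob/ob library 2 (5450 CPM) were slightly higher, so its distance from the other groups depends on the scaling. Its share of counts on an 18S ribosomal RNA gene was 24.5%, while it was 1.10% to 12.8% in the other 13 libraries. Other short genes were also high there, as described below. Results that rest on this library are therefore given with and without it where they were recomputed.

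GC identity was checked with 11 fixed markers, all of which were detected in each group. They summed to 7150 to 13110 CPM in db/db, 6608 to 13040 CPM in CT db, 8806 to 16670 CPM in ob/ob against 6073 to 10520 CPM in CT ob. Oocyte markers were present as well. Their 10 genes summed to 8.75 to 76.1 CPM in db/db, 3.47 to 299 CPM in CT db, 182 to 938 CPM in ob/ob against 79.1 to 1310 CPM in CT ob. Theca and stroma markers (10 genes) summed to 23.1 to 331 CPM in db/db, 25.2 to 62.7 CPM in CT db, 10.7 to 60.0 CPM in ob/ob against 25.2 to 177 CPM in CT ob. Endothelial markers (5 genes) reached at most 32.0 CPM and immune markers (6 genes) at most 23.3 CPM in a library, and erythroid markers (4 genes) stayed at or below 0.626 CPM. The part of other cells in the Nduf values was not tested. In bulk samples, fewer cells of a type and less RNA per cell cannot be told apart.

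Upstream sequence is shown for Ndufb6 and Ndufaf4, the subunit and the assembly factor with the smallest p in the comparison of db/db with CT db, because most results below turn on them. Both lie on chromosome 4. Ndufb6 (ENSMUSG00000071014) occupies chr4:40270581-40279468 on the minus strand and Ndufaf4 (ENSMUSG00000028261) occupies chr4:24898079-24905001 on the plus strand (GRCm39). The sequences come from the RefSeq promoter table (GRCm38.p6) and were placed in GRCm39 by an exact match. They are the bases of the table's upstream window that lie outside the annotated gene, at chr4:40279469-40279671 (minus strand, 203 bases) and chr4:24897833-24898078 (plus strand, 246 bases). Capitals mark the match to the GABPA motif, on the opposite strand, in the first sequence and the match to the NRF1 motif in the second.
Ndufb6: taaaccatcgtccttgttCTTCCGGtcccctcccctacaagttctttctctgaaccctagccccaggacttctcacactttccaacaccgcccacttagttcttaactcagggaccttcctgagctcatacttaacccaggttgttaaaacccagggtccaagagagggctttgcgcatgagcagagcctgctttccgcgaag
Ndufaf4: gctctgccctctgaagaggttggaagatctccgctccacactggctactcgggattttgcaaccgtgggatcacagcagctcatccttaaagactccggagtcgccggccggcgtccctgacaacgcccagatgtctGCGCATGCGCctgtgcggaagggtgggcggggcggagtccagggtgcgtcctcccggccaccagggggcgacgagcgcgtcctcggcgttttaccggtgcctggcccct

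NRF1 and GABPA are transcription factors known for binding promoters of nuclear genes for respiratory chain proteins, and YY1 is named beside them in the same role. The motifs searched on both strands were GCGCANGCG for NRF1, CCGGAAG for GABPA and AAGATGGCG for YY1. Those for NRF1 and YY1 were each shortened by 1 base after a first search. Ndufa2, which lies on chromosome 18, was left out of the members searched, while the promoters set beside them were not filtered by chromosome. Among 250 bases upstream of the RefSeq start, 6 of the 40 members with an entry used here held the NRF1 motif (15%), against 5.33% of 27025 promoters. The 6 were Ndufa5, Ndufa8, Ndufa11, Ndufb4, Ndufs6 and Ndufaf4. The GABPA motif was found in 5 of the 40 (12.5%), against 7.05% of all promoters, and the 5 were Ndufb6, Ndufb7, Ndufs3, Ndufaf1 and Ndufaf8. No member held the YY1 motif, which 0.607% of all promoters held. At least 1 of the motifs was present in 11 of the 40 members (27.5%) and in 12% of all promoters, and no member held more than 1 kind. The median GC content was 58.6% for the members and 52% for all promoters. These matches are letters in a window and say nothing on binding in GCs.

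The abundance of the members spanned a wide range within the same cells. Per length, taken as the union of all exons, the highest levels over the 14 libraries were those of Ndufa2 (214 CPM per kb), Ndufa1 (213 CPM per kb) and Ndufc2 (169 CPM per kb), 3 small accessory subunits. The lowest were those of Ndufb2 (2.65 CPM per kb), Ndufaf6 (2.24 CPM per kb) and Ndufb11b (0.0138 CPM per kb). The order depends on the transcript used for the length. Per kb of the Ensembl canonical transcript, Ndufa4 was highest at 646 CPM per kb, ahead of Ndufa1 (263 CPM per kb) and Ndufa2 (226 CPM per kb), whereas by the exon union Ndufa4 ranked 16 of 47. On the canonical scale 7 of the 8 assembly factors ranked 37 or lower, between 17.4 CPM per kb (Ndufaf8) and 5.71 CPM per kb (Ndufaf5), and Ndufaf2 alone ranked higher, 27 of 47 at 48.8 CPM per kb.

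**Figure D1:**
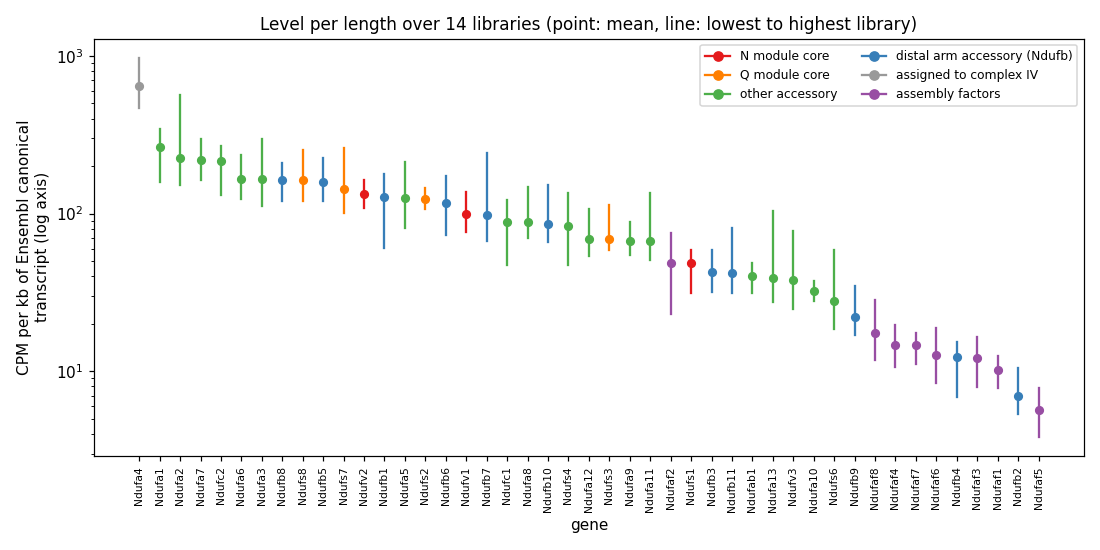
Mean level per kb of Ensembl canonical transcript (vertical log axis, CPM per kb) of 45 Nduf genes ordered along the horizontal axis, with lines from the lowest to the highest of 14 libraries and colours for roles. Ndufa4 is highest at 646 CPM per kb and the assembly factors lie mostly at the low end, down to 5.71 CPM per kb for Ndufaf5, with Ndufa4l2 and Ndufb11b left out for their near-zero libraries.

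Of the 46 pairs of neighbours in the canonical order, 45 had ranges over the 14 libraries that overlapped, and such ranks are not distinguished. The exception was Ndufa4, whose range lay above that of Ndufa1. Ndufa1, a small membrane subunit encoded on the X chromosome (chrX:36451241-36454849), measured 107, 155, 144 and 118 CPM in db/db and 109, 141, 144 and 132 CPM in CT db. It measured 109, 149 and 97.9 CPM in ob/ob against 71.7, 92.2 and 94.2 CPM in CT ob. All 3 CT ob libraries lay below all libraries of the other groups for this gene. Ndufc2, a membrane subunit (chr7:97049210-97057022), measured 123, 168, 136 and 125 CPM in db/db and 141, 187, 185 and 183 CPM in CT db. It measured 134, 182 and 163 CPM in ob/ob against 91.6, 110.3 and 183 CPM in CT ob, and groups overlapped within each model.

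Ndufa2, an accessory subunit of the N module, measured 111, 144, 132 and 127 CPM in db/db, and 107, 92.8, 132 and 108 CPM in CT db. It measured 88.5, 141 and 121 CPM in ob/ob against 99.5, 113 and 327 CPM in CT ob, where library 3 lay far above both others. The weakest subunit tested per length by the exon union, Ndufb2 (chr6:39569490-39595671), measured 24.2 to 37.0 CPM in db/db, 27.7 to 31.0 CPM in CT db, 26.3 to 32.4 CPM in ob/ob against 23.6 to 46.0 CPM in CT ob. Ndufaf6, an early assembly factor (chr4:11048820-11076236), measured 11.9 to 17.1 CPM in db/db, 12.1 to 21.7 CPM in CT db, 13.3 to 15.8 CPM in ob/ob against 9.70 to 16.3 CPM in CT ob. Groups overlapped for both genes.

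Ndufb11b (chr15:81864741-81865764) had 0 counts in 13 libraries and 1 count in CT ob library 1 (0.198 CPM), under the floor of 3 counts in every library. Ndufa4l2, a relative of Ndufa4 (chr10:127350818-127353038), was erratic. It measured 0.834, 2.09, 12.6 and 0.627 CPM in db/db and 0, 0, 20.3 and 2.75 CPM in CT db. It measured 0, 19.0 and 0.127 CPM in ob/ob against 0, 0.762 and 1.25 CPM in CT ob. A single library in each of db/db, CT db and ob/ob carried most of its signal, so no difference is read from it.

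Summed levels of the members were compared between mutants and controls first. The 39 subunits summed to 4492 ± 427 CPM in db/db (SD, n = 4) and 4531 ± 307 CPM in CT db (SD, n = 4). In the ob model they summed to 4678 ± 547 CPM in ob/ob (SD, n = 3) and 4685 ± 1331 CPM in CT ob (SD, n = 3), or 3920 ± 185 CPM in CT ob without library 3 (SD, n = 2). The 8 assembly factors summed to 219 ± 3.80 CPM in db/db, 235 ± 25.1 CPM in CT db, 238 ± 8.66 CPM in ob/ob against 235 ± 7.69 CPM in CT ob. The ranges of both sums overlapped between mutant and control in each model, but for the subunits of the ob model only through CT ob library 3. Without it, both CT ob libraries (3789 and 4051 CPM) lay below all 3 ob/ob libraries (4158 to 5249 CPM). Subunits took 0.387% to 0.546% of all counts in a library.

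**Figure D2:**
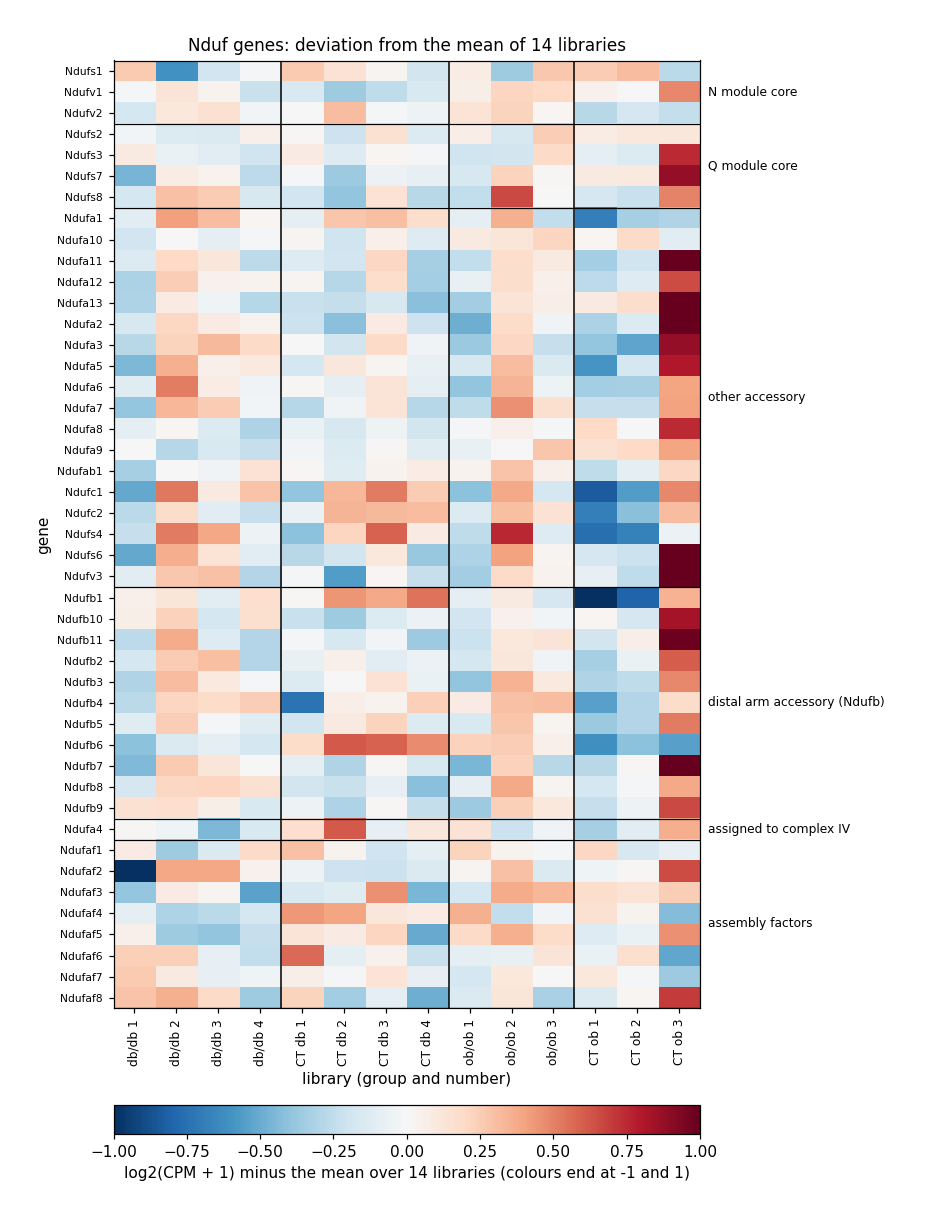
Deviation of each of the 45 Nduf genes tested in both models (rows, by role) in each of the 14 libraries (columns, by group), as log2(CPM + 1) minus the gene's mean over the libraries, with colours ending at -1 and 1. Most subunits are high together in CT ob library 3, while Ndufb6 is high in the 4 CT db libraries and low in the 3 CT ob libraries.

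The first comparison asked whether loss of the leptin receptor goes with another level of complex I transcripts. Of the 45 members tested in db/db against CT db, 0 were called by edgeR's quasi-likelihood test at an adjusted p of 0.05 or less, beside 0.00884% of 11317 genes. An unadjusted p under 0.05 was reached by 4 members, 2 higher and 2 lower, beside 7.59% of all genes (3.38% higher, 4.21% lower), and DESeq2 called 1 member, beside 0.389% of genes. The groups did not overlap for 2 members, both lower in db/db, beside 4.43% of all genes (1.30% higher, 3.13% lower). Over all 45 members the median log2 fold change was 0.08, with 30 above 0, beside 0.01 over all genes. It was 0.11 for the subunits and -0.02 for the assembly factors. Without db/db library 2 the subunits' median was 0.002, and without db/db library 1 it was 0.188.

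Ndufb6, an accessory subunit of the distal membrane arm, had the smallest p in this comparison. It measured 56.7, 68.5, 70.6 and 66.8 CPM in db/db and 85.9, 116, 114 and 105 CPM in CT db. Every db/db library lay below every CT db library, with means of 65.7 ± 6.18 CPM and 105 ± 13.8 CPM (SD, n = 4 each). The log2 fold change was -0.64 ± 0.15 (SE), with an edgeR adjusted p of 0.363 over all genes and a DESeq2 adjusted p of 0.0371. The DESeq2 call was lost without any 1 of 6 of the 8 libraries (adjusted p-values of 0.141 to 0.294) and held without db/db library 1 or CT db library 1. In the same comparison the 6 oocyte markers tested were all below 0, with a median log2 fold change of -1.74 and 0 called. Of 6 theca and stroma markers tested 5 were above 0 (median 0.61, 0 called), and granulosa markers had a median of 0.04. The part of these markers in the Ndufb6 value was not tested. An exact permutation test over the 8 libraries gave a two-sided p of 0.0286, the smallest it can give. Any gene without overlap of these groups gets this value, so it adds nothing to the separation stated above.

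Ndufaf4, an assembly factor that acts with Ndufaf3 on the Q module, measured 48.8, 42.2, 43.3 and 46.1 CPM in db/db and 71.1, 69.0, 56.6 and 55.3 CPM in CT db. The db/db libraries lay close together and all below the CT db libraries. The log2 fold change was -0.44 ± 0.14 (SE), with an edgeR adjusted p of 0.526 and a DESeq2 adjusted p of 0.371, so it was not called by either tool. The exact permutation p was again 0.0286, the smallest possible, which follows from the lack of overlap.

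The other 2 members under an unadjusted p of 0.05 were Ndufb genes with higher means in db/db. Ndufb8 (chr19:44537011-44543939), of the distal membrane arm, measured 97.5, 127, 127 and 122 CPM in db/db and 96.6, 93.9, 104 and 81.7 CPM in CT db. Only db/db library 1 fell within the range of the controls, and the log2 fold change was 0.38 ± 0.14 (SE, edgeR adjusted p = 0.576). Ndufb10 (chr17:24941032-24943453), also of the distal arm, measured 64.6, 72.6, 54.7 and 69.3 CPM in db/db and 52.9, 48.3, 56.3 and 59.4 CPM in CT db. The groups overlapped through db/db library 3, with a log2 fold change of 0.31 ± 0.14 (SE, edgeR adjusted p = 0.648). Thus Ndufb6 lay on the other side of 0 from 9 of the 11 Ndufb genes, whose median was 0.13 with a range from -0.64 to 0.38.

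By role, none of the groups moved as one in db/db against CT db. The 3 core subunits of the N module had log2 fold changes from -0.14 to 0.26 and the 4 of the Q module from -0.01 to 0.28. The 18 other accessory subunits lay between -0.30 and 0.29, with 14 above 0. The 8 assembly factors lay between -0.44 (Ndufaf4) and 0.36 (Ndufaf8), with 3 above 0. For subunits, the standard error of the log2 fold change was 0.16 at the median.

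The corresponding comparison for loss of leptin, ob/ob against CT ob, also gave 0 called members of 45 by edgeR, beside 0% of 12425 genes called, and 0 by DESeq2, beside 0.736% of genes. An unadjusted p under 0.05 was reached by 1 member, higher in ob/ob, beside 8.16% of all genes (4.76% higher, 3.40% lower). The groups did not overlap for 3 members (Ndufb6, Ndufv2 and Ndufa1), all higher in ob/ob, beside 15.1% of all genes (9.06% higher), and 3 against 3 libraries allow no exact permutation p below 0.1. The median log2 fold change was -0.09 over the members, with 17 of 45 above 0, and -0.04 over all genes. For subunits the median was -0.10, and without CT ob library 3 it was 0.26. Markers differed in the same comparison, with 0 called. Of 11 granulosa markers 8 were above 0 (median 0.505), as were 1 of 7 theca and stroma markers (median -1.13) and 3 of 10 oocyte markers (median -0.21). Their part in the Nduf values was not tested, and these medians were not recomputed without CT ob library 3.

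Ndufb6 again had the smallest p, with the opposite sign. It measured 89.0, 90.1 and 78.4 CPM in ob/ob against 49.2, 56.7 and 51.6 CPM in CT ob. Every ob/ob library lay above every CT ob library, with means of 85.8 ± 6.47 CPM and 52.5 ± 3.83 CPM (SD, n = 3 each). The log2 fold change was 0.66 ± 0.18 (SE), with an edgeR adjusted p of 0.539 and a DESeq2 adjusted p of 0.160, neither of them past the threshold.

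Ndufv2, a core subunit of the N module that holds an iron-sulphur cluster (chr17:66385633-66408634), measured 259, 275 and 239 CPM in ob/ob against 194, 210 and 199 CPM in CT ob. The groups were separate, with a log2 fold change of 0.31 ± 0.17 (SE, edgeR adjusted p = 0.677). In the db model the same gene measured 208 to 261 CPM in db/db and 227 to 291 CPM in CT db, and the groups overlapped. CT ob library 3 (199 CPM) was not high for this gene.

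Ndufa13, also known as GRIM-19, an accessory subunit (chr8:70346808-70355872), measured 55.1, 77.1 and 74.03 CPM in ob/ob against 75.1, 79.8 and 199 CPM in CT ob. The log2 fold change was -0.86 ± 0.42 (SE, edgeR adjusted p = 0.638), and without CT ob library 3 it was -0.16. Ndufaf8, a partner of the assembly factor Ndufaf5 (chr11:119989736-119991531), measured 12.1, 14.8 and 10.6 CPM in ob/ob against 12.1, 13.7 and 22.5 CPM in CT ob. The log2 fold change for this gene was -0.43 ± 0.36 (SE, edgeR adjusted p = 0.764) and -0.03 without that library. In both genes a single library thus carried most of the difference.

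**Figure D3:**
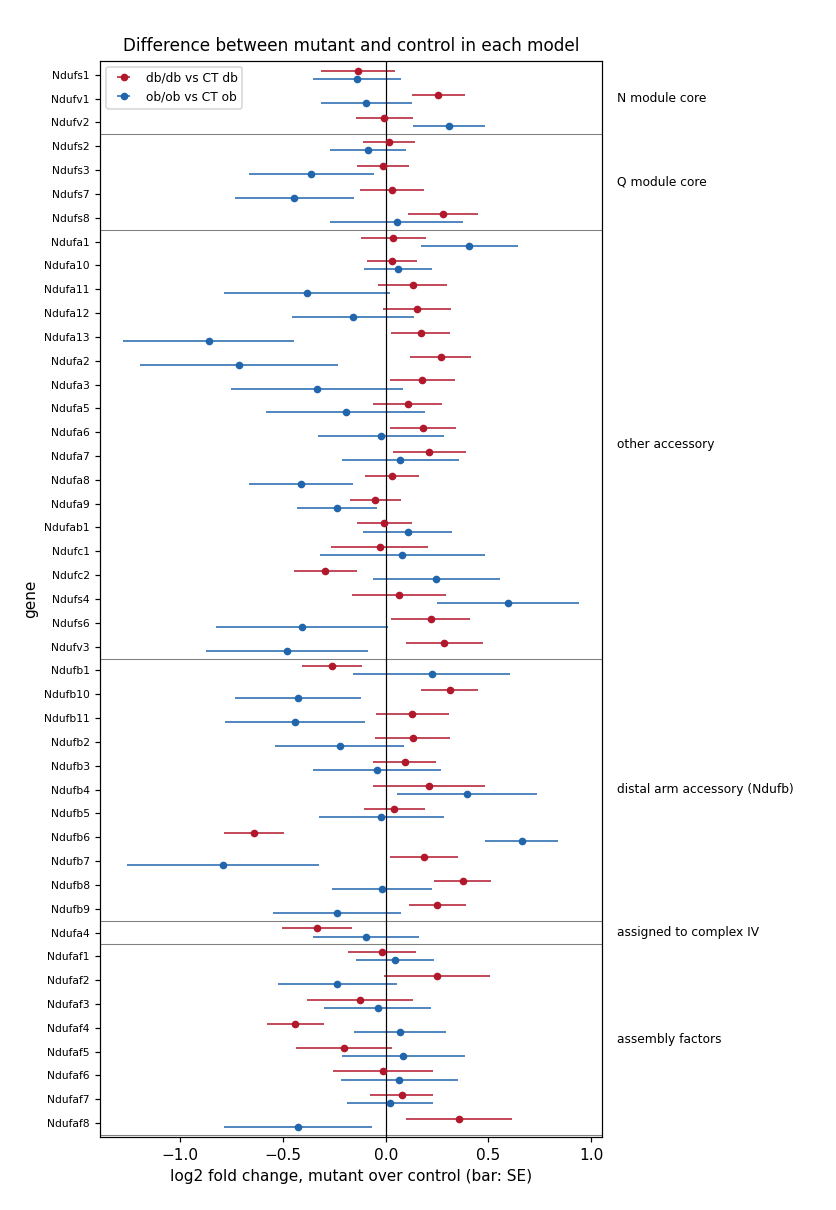
Log2 fold change of mutant over control (horizontal axis, bars are SE) for the 45 Nduf genes tested in both models (vertical axis, by role), with db/db over CT db in red and ob/ob over CT ob in blue. Ndufb6 stands out to the left in the db model (-0.64) and to the right in the ob model (0.66), and bars are longer in the ob model than in the db model for most genes.

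The difference between the effects in both models was tested as an interaction in 1 fit of all 14 libraries. By edgeR, 0 of the 46 members tested were called, beside 0% of 12586 genes, and 3 members had an unadjusted p under 0.05 (1 above 0, 2 below), beside 8.11% of all genes (5.12% above 0, 2.99% below). DESeq2 called 1 member, Ndufb6, beside 0.608% of genes. For Ndufb6 the log2 fold change in the ob model exceeded that in the db model by 1.30 ± 0.21 (SE), with an unadjusted edgeR p of 1.97e-05, an edgeR adjusted p of 0.176 and a DESeq2 adjusted p of 8.94e-05. With every gene of at least 1 count in the fit, the edgeR adjusted p was 0.00186. All 10 oocyte markers were above 0 in the interaction too, with a median of 1.49 and 0 called. Of 7 theca and stroma markers 0 were above 0 (median -1.85, 0 called), and of 11 granulosa markers 8 were (median 0.69, 0 called). The part of these markers was not tested. Opposite differences without overlap of groups in both models were shown by 62 of the 11216 genes tested in both (0.553%), and Ndufb6 was the only such gene among 45 members. A difference of the same sign without overlap in both models was shown by 0 members and by 0.312% of genes.

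The next members by p in the interaction were Ndufa13 (log2 difference -1.03 ± 0.43, SE, edgeR adjusted p = 0.563) and Ndufb10 (-0.74 ± 0.32, SE, edgeR adjusted p = 0.594). Without CT ob library 3 these values were -0.32 and -0.27. Among assembly factors the smallest p belonged to Ndufaf4 (0.51 ± 0.24, SE, edgeR adjusted p = 0.609). It measured 67.0, 44.1 and 51.2 CPM in ob/ob against 58.3, 53.6 and 38.5 CPM in CT ob, where the groups overlapped, unlike in the db model. The subunits' median in the interaction was -0.21, and 0.13 without CT ob library 3.

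The 4 groups of Ndufb6 formed an order from CT db (105 CPM) through ob/ob (85.8 CPM) and db/db (65.7 CPM) to CT ob (52.5 CPM). The lowest CT db library (85.9 CPM) lay within the range of ob/ob (78.4 to 90.1 CPM), so these neighbours overlapped. The lowest ob/ob library lay above the highest db/db library (70.6 CPM). The lowest db/db library (56.7 CPM) equalled the highest CT ob library (56.7 CPM) to the first decimal, so this pair of neighbours was not clearly separated. The controls were therefore at the ends of the order and the mutants between them. Exons of Ndufb6 are overlapped on the opposite strand by Smim27 (267 bases) and by the lncRNA Gm69644 (182 bases). Smim27 itself measured 2.02 to 11.3 CPM over the 14 libraries, with a log2 fold change of 0.67 ± 0.45 (SE, edgeR adjusted p = 0.747) in the db model and -0.72 ± 0.56 (SE, edgeR adjusted p = 0.747) in the ob model. Of 600 windows of 75 bases in the Ndufb6 transcript, 7 had an exact second copy in the genome (1.17%).

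**Figure D4:**
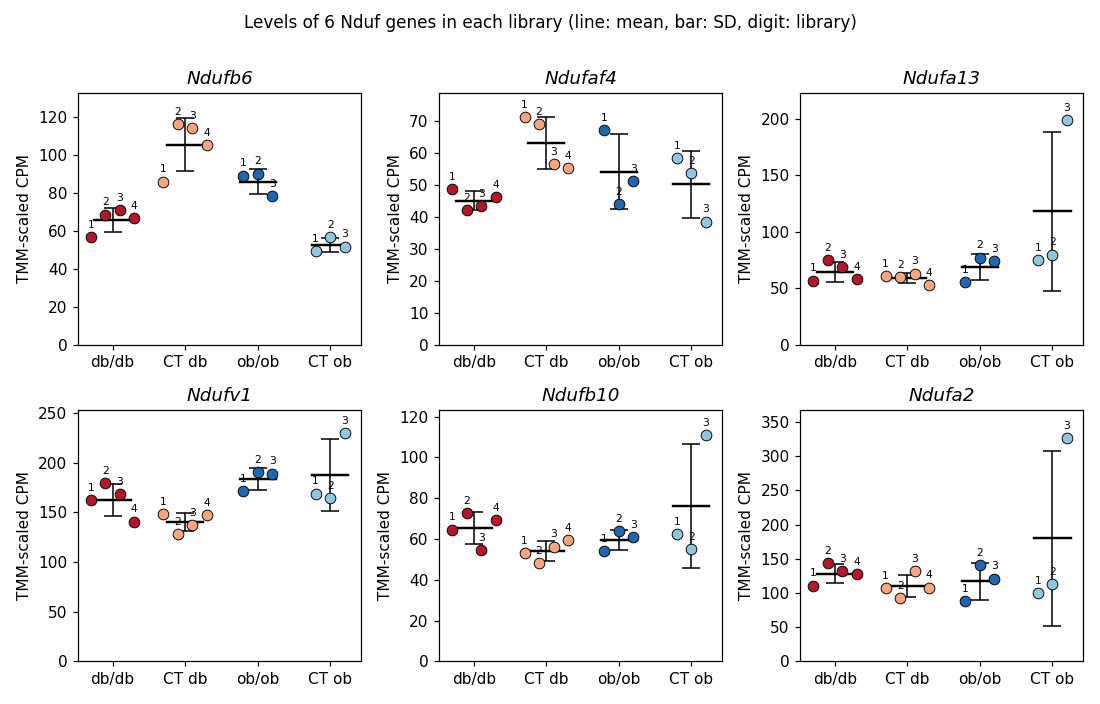
TMM-scaled CPM (vertical axes from 0) of Ndufb6, Ndufaf4, Ndufa13, Ndufv1, Ndufb10 and Ndufa2 in each library of the 4 groups (points, with the library's number), with the group mean (line) and SD (bar). For Ndufb6 the 4 CT db libraries (85.9 to 116 CPM) lie above the db/db libraries and the 3 CT ob libraries (49.2 to 56.7 CPM) below the ob/ob libraries, whereas for Ndufa13 and Ndufa2 CT ob library 3 lies far above all other libraries.

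The control groups of both models were then compared with each other, to see what baseline each mutant was set against. Of the 46 members tested, 2 were called by edgeR in CT ob against CT db (1 higher, 1 lower), beside 6.63% of 12586 genes (2.24% higher, 4.39% lower), and 4 by DESeq2, beside 12.4% of genes. An unadjusted p under 0.05 was reached by 12 members (9 higher, 3 lower), beside 26.9% of all genes (13.5% in each direction). The groups did not overlap for 9 members (6 higher, 3 lower), beside 20.2% of all genes (8.80% higher, 11.4% lower). In either direction together the shares of members were near those of all genes. Oocyte markers differed in the same comparison, with a median log2 fold change of 2.24, all 10 above 0 and 0 called. Of 7 theca and stroma markers 6 were above 0 (median 0.82, 0 called), and of 11 granulosa markers 5 were (median -0.22). The granulosa marker Fshr was called lower in CT ob (-1.72 ± 0.35, SE, edgeR adjusted p = 0.0163). The part of these markers in the Nduf values was not tested.

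Ndufb6 was lower in CT ob than in CT db, with a log2 fold change of -0.97 ± 0.15 (SE, edgeR adjusted p = 0.00658, DESeq2 adjusted p = 5.45e-07). It remained called without any single library, at edgeR adjusted p-values from 0.00318 to 0.0322. Ndufa13 was higher in CT ob. It measured 60.4, 59.7, 62.9 and 52.6 CPM in CT db and 75.1, 79.8 and 199 CPM in CT ob, and the groups did not overlap. Its log2 fold change was 1.07 ± 0.30 (SE, edgeR adjusted p = 0.0456), but 0.36 without CT ob library 3, when the call was lost (edgeR adjusted p = 0.247). The call was also lost without any single CT db library, at edgeR adjusted p-values of 0.0579 to 0.114 and log2 fold changes of 1.02 to 1.09. Exons of Ndufa13 are overlapped on the opposite strand by Tssk6 over 1039 bases.

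The 2 further members that DESeq2 called in this comparison were Ndufv1 and Ndufa1. Ndufv1, the core subunit that binds NADH (chr19:4057384-4062814), measured 148, 128, 138 and 148 CPM in CT db and 169, 164 and 230 CPM in CT ob. The groups were separate, with a log2 fold change of 0.47 ± 0.16 (SE, edgeR adjusted p = 0.0892, DESeq2 adjusted p = 0.0483), and 0.22 without CT ob library 3. The DESeq2 call was lost without that library (adjusted p = 0.305) and without any single CT db library (adjusted p-values of 0.0626 to 0.140). In the mutants it measured 141 to 180 CPM in db/db and 171 to 191 CPM in ob/ob. Ndufa1, whose values stand above, was lower in CT ob by DESeq2 (log2 fold change -0.58, adjusted p = 0.0441) and not called by edgeR (adjusted p = 0.0900), and its DESeq2 call was not recomputed without single libraries.

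Without CT ob library 3, edgeR called Ndufb6 (-1.03) and Ndufb1 (-1.30, adjusted p = 0.0120), both lower in CT ob. Ndufb1, a small subunit of the distal membrane arm, was named here after its values were seen. It measured 107, 144, 138 and 155 CPM in CT db and 52.7, 60.5 and 135 CPM in CT ob, where library 3 lay among the controls of the other model. In the mutants it measured 110, 115, 98.4 and 119 CPM (db/db) and 99.2, 113 and 94.3 CPM (ob/ob). The median over all subunits in this comparison was 0.22, beside 0.06 over all genes, and it was -0.15 without CT ob library 3. The direction of the subunits as a group thus rested on that library. Among assembly factors Ndufaf4 had the smallest p, with a log2 fold change of -0.30 ± 0.17 (SE, edgeR adjusted p = 0.264).

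Between the mutants, ob/ob against db/db, 0 of 46 members were called by edgeR, beside 0.0159% of 12586 genes, and 0 by DESeq2, beside 0.573%. An unadjusted p under 0.05 was reached by 1 member, higher in ob/ob, beside 8.18% of all genes (4.62% higher, 3.56% lower). The groups did not overlap for 3, all higher in ob/ob, beside 10.2% of all genes (7.05% higher, 3.15% lower). The members' median was 0.01, with 24 of 46 above 0. All 10 oocyte markers were above 0 here, with a median of 3.51 and 0 called. Of 7 theca and stroma markers 2 were above 0 (median -0.53, 0 called), and of 11 granulosa markers 7 were (median 0.23, 0 called). The part of these markers was not tested. Ndufb6 had the smallest p (log2 fold change 0.33 ± 0.15, SE, edgeR adjusted p = 0.587). Ndufa10, an accessory subunit related to nucleoside kinases (chr1:92361375-92401613), measured 208, 238, 223 and 235 CPM in db/db and 253, 259 and 275 CPM in ob/ob. Its groups were separate by a small step, with a log2 fold change of 0.16 ± 0.12 (SE, edgeR adjusted p = 0.862).

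Ndufa9, an accessory subunit at the junction of both arms (chr6:126798684-126826117), measured 96.7, 78.9, 86.6 and 82.2 CPM in db/db and 91.3, 96.1 and 117 CPM in ob/ob, and the groups overlapped. Its log2 fold change was 0.18 ± 0.15 (SE, edgeR adjusted p = 0.865). Ndufaf5, an assembly factor that modifies Ndufs7 (chr2:140012562-140047301), measured 15.8, 11.7, 11.4 and 12.9 CPM in db/db and 17.6, 19.8 and 17.5 CPM in ob/ob. The groups were separate at these low levels, which rest on 27 to 41 counts in db/db, and the log2 fold change was 0.44 ± 0.25 (SE, edgeR adjusted p = 0.730). In the controls Ndufaf5 measured 10.5 to 17.9 CPM in CT db and 13.9 to 21.3 CPM in CT ob.

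Most subunits went up and down together from library to library within groups. After removal of each group's mean, the median correlation between pairs of 38 subunits was 0.63 over the 14 libraries and 0.45 over the 13 without CT ob library 3. Against the mean of the other subunits, 22 of 38 had a correlation over 0.8, and 13 of 38 without that library. Without it the closest were Ndufs8 (0.92), Ndufs4 (0.92), Ndufb3 (0.91), Ndufa7 (0.91), Ndufa2 (0.91) and Ndufs6 (0.91). Ndufs1, the core subunit with most iron-sulphur clusters, went the other way (-0.73), and so did Ndufa4 (-0.58), the subunit assigned to complex IV. Among assembly factors the strongest opposite values were those of Ndufaf4 (-0.85) and Ndufaf1 (-0.74), and 4 of the 8 were below 0. The correlation of Ndufb6 with the other subunits was 0.52. These values describe 13 libraries that share depth and protocol, and scaling within a library ties genes to each other.

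In 3 of the 4 groups Ndufs1 was lowest in the library where the subunits' sum was highest. It measured 207 CPM in db/db library 1, where the subunits' sum was lowest for the group (4029 CPM), and 113 CPM in db/db library 2, where the sum was highest (5026 CPM). In ob/ob it measured 135 CPM in library 2, where the sum was highest (5249 CPM), and 181 and 208 CPM in the others. In CT ob it measured 143 CPM in library 3 and 205 and 213 CPM in the others. In CT db it was highest in library 1 (207 CPM), where the sum was lowest (4265 CPM). It measured 191 CPM in library 2 (sum 4602 CPM) and 176 CPM in library 3, where the sum was highest (4936 CPM). Library 4 departed from this course, with the lowest Ndufs1 of the group (152 CPM) at a low sum (4322 CPM). Its group means were 160 ± 39.4 CPM in db/db, 181 ± 23.4 CPM in CT db, 175 ± 37.1 CPM in ob/ob against 187 ± 38.6 CPM in CT ob, which overlap.

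The common course of the short subunits was shared by other short genes and, in most libraries, by the long subunits. The 19 subunits tested with a canonical transcript under 1000 bases deviated from their mean over libraries by a median of -0.34 (CT ob library 1) to 0.40 (CT ob library 3) on the scale of log2 CPM with a prior count of 2. The 419 other protein-coding genes tested under 1000 bases deviated by a median of -0.18 to 0.51 in the same libraries. In db/db library 2 the values were 0.22 for short subunits and 0.18 for the other short genes, in ob/ob library 2 they were 0.25 and 0.16, and in ob/ob library 1 they were -0.16 and -0.18. The 8 subunits with transcripts of 2000 bases or more ranged from -0.22 (ob/ob library 1) to 0.30 (CT ob library 3). They deviated by 0.22 in db/db library 2 and by 0.18 in ob/ob library 2, so the course was not confined to short subunits. The 4811 other genes of 4000 bases or more ranged from -0.22 (CT ob library 3) to 0.08. They deviated by 0.01 in db/db library 2 and by 0.08 in ob/ob library 2. The assembly factors' median ranged from -0.21 to 0.18 and was 0.09 in CT ob library 3. They were not chosen by length, so role and length are mixed in this contrast. In that library Ndufaf2 (710 bases), Ndufaf8 (799 bases) and Ndufaf5 (2722 bases) were at their highest over all libraries. Ndufaf4 (3634 bases), Ndufaf7 (2212 bases) and Ndufaf6 (1154 bases) were at their lowest there. The part of transcript length in the differences between groups was not tested.

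**Figure D5:**
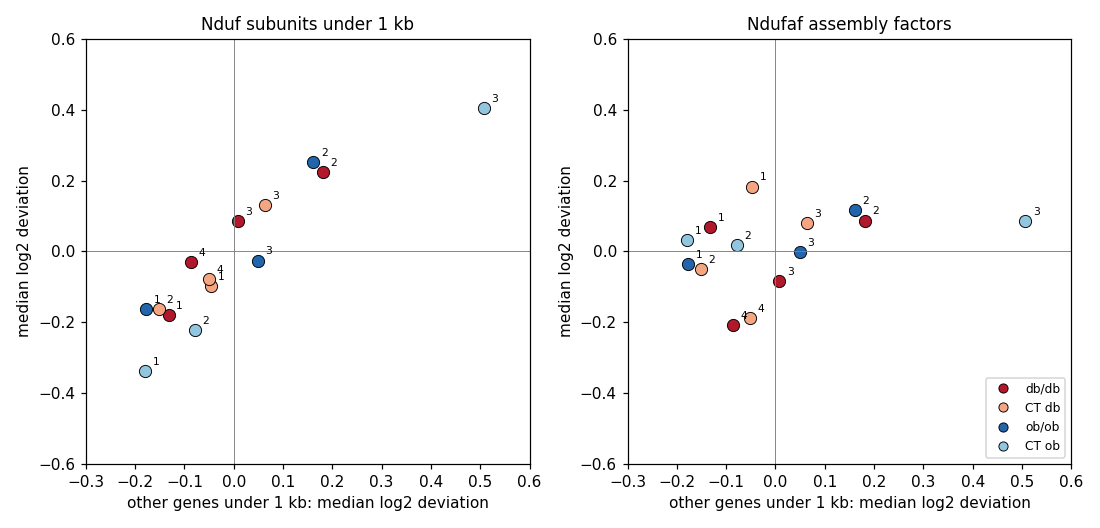
Median log2 deviation from the mean over 14 libraries of the 19 Nduf subunits with transcripts under 1 kb (left) and of the 8 assembly factors (right), against the same for 419 other protein-coding genes under 1 kb (horizontal axis), with 1 point per library numbered within its group. Short subunits are high in the libraries where other short genes are high, up to 0.40 in CT ob library 3. The assembly factors, with transcripts of 710 to 4780 bases, stay between -0.21 and 0.18.

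The partners of these genes from the mitochondrial genome were measured in the same libraries. The 7 mt-Nd genes summed to 16520 ± 1683 CPM in db/db, 20270 ± 5663 CPM in CT db, 15320 ± 589 CPM in ob/ob against 11330 ± 2939 CPM in CT ob. Of these 7, 6 were tested, and 0 were called in either model. In CT ob against CT db, mt-Nd1 (log2 fold change -0.92 ± 0.25, SE, edgeR adjusted p = 0.0433) and mt-Nd5 (-0.83 ± 0.21, SE, edgeR adjusted p = 0.0333) were lower. The nuclear subunits' median was 0.22 with CT ob library 3 and -0.15 without it. In CT ob library 3, where nuclear subunits were highest, mt-Nd1 (4254 CPM, against 8491 and 9007 CPM in the other CT ob libraries), mt-Nd5 and mt-Nd3 were the lowest of the group. The other 3 tested went the other way there, with mt-Nd4 at 1183 CPM against 885 and 895 CPM, and mt-Nd2 and mt-Nd6 also highest in that library. The gene mt-Nd4l had at most 2 counts in a library.

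Among 11 complex I assembly factors with other names, such as Acad9 and Ecsit, which act with Ndufaf1, 0 were called in any of the 5 comparisons, and 1 had an unadjusted p under 0.05, in CT ob against CT db. Their sum was 426 ± 17.8 CPM in db/db, 450 ± 25.5 CPM in CT db, 432 ± 8.66 CPM in ob/ob against 443 ± 55.0 CPM in CT ob. Of the other complexes, 0 genes were called in either model among 4 of complex II, 9 of complex III, 10 of complex IV and 18 of complex V tested. In db/db against CT db their medians were -0.02, 0.18, 0.17 and 0.07, beside 0.11 for the Nduf subunits. The latter set includes Ndufa4, assigned to complex IV. In ob/ob against CT ob these medians were -0.09, -0.05, -0.24 and -0.16, beside -0.10. Without CT ob library 3 the value of the Nduf subunits was 0.26, and those of the other complexes were not recomputed. The complex IV genes summed to 1706 to 3502 CPM in CT ob libraries, with a median of 1897 CPM. In CT ob against CT db, Uqcrb of complex III (-0.76 ± 0.18, SE, edgeR adjusted p = 0.0259) and Atp5pb of complex V (-0.59 ± 0.15, SE, edgeR adjusted p = 0.0331) were lower. Like Ndufb6, Uqcrb had opposite signs in the models. Its log2 fold change was -0.74 ± 0.16 (SE, edgeR adjusted p = 0.363) in db/db against CT db. It was 0.28 ± 0.19 (SE, edgeR adjusted p = 0.713) in ob/ob against CT ob. In the interaction it was 1.02 ± 0.25 (SE, edgeR adjusted p = 0.265). The calls of Fshr, mt-Nd1, mt-Nd5, Uqcrb and Atp5pb were not recomputed without single libraries. Of 7 tested regulators of mitochondrial gene expression, such as Nrf1, Gabpa and Tfam, 0 were called in any comparison.

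The mutated genes offer little check of the labels. Lep had at most 3 counts in a library. Lepr (chr4:101574601-101676237) measured 0 to 1.26 CPM in db/db, 0.275 to 1.30 CPM in CT db, 0.558 to 2.98 CPM in ob/ob against 0.595 to 3.75 CPM in CT ob, near the floor, and counts per gene do not separate its long form from the others.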

How the data were processed

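The authors deposited raw counts per gene of 14 GC libraries, made from single reads of 75 bases. The study's methods name cutadapt, STAR, GRCm39 and featureCounts, whereas the submitters' processing notes list Trim Galore 0.6.2, HISAT2 2.1.0 and GRCm38. The strand setting and the treatment of reads with several matches are not given in the sources used here. Symbols and positions come from GENCODE on GRCm39, matched by Ensembl identifier (54749 of 55414). Column names were tied to groups, not to single samples, by the study's sample table, and 0 columns were left out.

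From the counts, edgeR 4.0.16 (R 4.3.3) computed TMM factors and quasi-likelihood tests after filterByExpr (minimum count 10, minimum total 15), with Benjamini-Hochberg adjustment over all genes and calls at 0.05 or less. Each SE is the absolute log2 fold change divided by the square root of the F statistic. The db and ob models were fitted separately, and the 3 other comparisons in 1 fit of all libraries. DESeq2 1.42.0, other scalings and filters, and leaving out each library served as alternatives. Lengths by canonical transcript were added after seeing the data, and the NRF1 and YY1 motifs were each shortened by 1 base after a first search. Common biological coefficients of variation were 0.231 (db model) and 0.327 (ob model). Scripts were tested on simulated data. Library totals ranged from 2204686 to 8367593 counts.

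Genes with values in every library are members called in any comparison, the 3 subunits and the assembly factor of smallest p in each, and the 3 highest and 3 lowest per kb; any others were named after their values were seen. The members, lists and markers were chosen with earlier results of these data known.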

Additional observations from a re-analysis of the deposited data

Results flagged for a closer look

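Ndufb6 was set apart because every db/db library lay below every CT db library while every ob/ob library lay above every CT ob library. The log2 fold change in the ob model exceeded that in the db model by 1.30 (edgeR adjusted p = 0.176 and DESeq2 adjusted p = 8.94e-05). Leaving out any 1 of the 14 libraries kept this difference between 1.23 and 1.39 by edgeR, with adjusted p-values from 0.0739 to 0.490, and by DESeq2 with adjusted p-values from 9.90e-08 to 0.00291.

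Single libraries were set apart in groups of 4, where the gap from the highest or lowest library to its neighbour took more of the group's range than Dixon's critical value for 4 values allows. For Ndufv2 the highest CT db library, number 2, measured 291 CPM, with a gap of 0.883 of the range. For Ndufc2 the lowest CT db library, number 1, measured 141 CPM, with a gap of 0.917 of the range. These were 2 libraries in 36 sets of 4 values, where chance gives about 1 in 20. Groups of 3 were not tested, so CT ob library 3 could not be found this way.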

How the results depend on the processing

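No paired analysis was possible because the columns carry no replicate number of the labels. The number of subunits called in CT ob against CT db was 2, but 1 with library totals only, 6 with every gene of at least 1 count, 4 with DESeq2 and 1 to 3 when single libraries were left out. In db/db against CT db it was 0, but 1 with every gene of at least 1 count and 1 with DESeq2, in both cases Ndufb6. In ob/ob against CT ob it was 0, but 1 with every gene of at least 1 count (Ndufa4l2, high in a single ob/ob library). In the interaction it was 0, but 2 with every gene of at least 1 count (Ndufb6 and Ndufa4l2) and 1 with DESeq2 (Ndufb6). The cause was not tested. Leave-one-out moved the subunits' median log2 fold change between -0.15 and 0.44 in CT ob against CT db, between -0.39 and 0.13 in the interaction and between -0.22 and 0.26 in ob/ob against CT ob, where -0.15, 0.13 and 0.26 are the values without CT ob library 3. In db/db against CT db the median moved between 0.002 and 0.188, and in ob/ob against db/db between -0.152 and 0.084.

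For the members named in each comparison, 296 values were recomputed. None changed sign, 285 kept their side of the threshold, 6 lost the call and 5 gained it. All 6 losses were Ndufa13 in CT ob against CT db, 5 without a library and 1 with library totals only (edgeR adjusted p = 0.0512). Depth limits the members with a mean under 20 CPM most, which are Ndufb11b, Ndufa4l2, Ndufb4, Ndufaf8, Ndufaf6, Ndufaf5 and Ndufaf3.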
